A study of Mus musculus with 4 samples.

Results

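The genes described here are 10 transcription factors of the innate lymphoid lineage: Id2, Gata3, Tox, Tox2, Nfil3, Runx1, Runx3, Zbtb16, Ets1 and Rora. They were measured in CCR6+ group 3 innate lymphoid cells (ILC3) of the mouse mesenteric lymph node. A gene was represented by the array probe sets whose platform annotation named it alone, and by the one with the highest mean where there were several. All 10 genes were found in this way, each with 1 probe set, among 19938 named genes. The cells came from naive C57BL/6 mice and were sorted as CD127+, CD90.2+, CCR6+ and ST2-, where CD127 is the receptor for interleukin-7, CD90.2 is the surface protein Thy1 and ST2 is the receptor for interleukin-33. The labels name no genetic change, no treatment, no age and no marker by which T or B cells were removed. The 4 samples, 1 array each, form 1 group, and whether they came from separate animals, pools or sorts is not given in the sources used here, so the spread between arrays may be partly technical. There is no second group, so the factors could not be compared with their levels in another cell type or condition.

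Innate lymphoid cells are lymphocytes without rearranged antigen receptors that arise from the common lymphoid progenitor. NFIL3, TOX, ID2 and GATA3 act in the progenitors that commit to this fate, and ZBTB16, also called PLZF, marks a precursor that can give rise to several innate lymphoid lineages but contributes little to lymphoid tissue inducer cells. CCR6+ ILC3 of adult lymph nodes include cells that resemble lymphoid tissue inducer cells. RUNX proteins, ETS1 and RORα act both in progenitors and in mature cells. T cells use most of these factors too, so none of them marks ILC3 alone.

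Both Runx1 and Runx3 have a distal and a proximal promoter, and RUNX proteins bind letters such as TGTGGT, read as ACCACA on the other strand. The distal promoters are shown because they hold the same pair of RUNX letters. The sequences are from RefSeq, build GRCm38.p6, and cover 250 bases before to 50 after the annotated start, 5′ to 3′ on the gene's own strand. Capitals mark matches, on either strand, to the letters named for each gene. The Runx1 window is chr16:92826025-92826324, minus strand, and the Runx3 window is chr4:135120395-135120694, plus strand, with RUNX letters (TGTGGT or TGCGGT) and E-box letters (CAGNTG, the form that E proteins bind) in capitals.
Runx1 distal: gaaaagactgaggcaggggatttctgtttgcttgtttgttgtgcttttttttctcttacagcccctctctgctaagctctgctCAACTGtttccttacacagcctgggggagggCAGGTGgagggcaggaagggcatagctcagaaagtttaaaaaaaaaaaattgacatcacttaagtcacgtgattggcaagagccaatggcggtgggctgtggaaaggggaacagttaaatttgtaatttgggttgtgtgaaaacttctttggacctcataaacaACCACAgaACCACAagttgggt
Runx3 distal: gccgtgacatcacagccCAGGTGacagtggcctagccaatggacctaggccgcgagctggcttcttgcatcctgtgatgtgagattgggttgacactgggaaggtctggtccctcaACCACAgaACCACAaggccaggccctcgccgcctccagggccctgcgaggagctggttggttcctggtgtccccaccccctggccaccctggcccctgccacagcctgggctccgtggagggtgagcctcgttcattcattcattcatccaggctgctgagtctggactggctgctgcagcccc

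In both windows the pair reads ACCACAGAACCACA, with 2 bases between the 2 RUNX matches. It starts at +29 in the Runx1 window and at -134 in the Runx3 window, counted from the annotated start. These 14 letters were searched for after they had been seen. They occurred on either strand in 4 of 32851 RefSeq promoter windows (0.0122%): the Runx1 and Runx3 windows, a Runx2 window at chr17:44814578-44814877, and that of Gm16225, a transcript on the opposite strand that overlaps the Runx3 window. At least 1 RUNX match was present in 22.4% of all windows and at least 2 were present in 2.86%. The proximal windows of Runx1 (chr16:92697280-92697579, minus strand) and Runx3 (chr4:135152295-135152594, plus strand) held no RUNX letters. The single probe set of each gene gave 1 level, which does not say from which promoter the RNA was made.

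The windows of Id2 (chr12:25096043-25096342, minus strand) and Nfil3 (chr13:52980990-52981289, minus strand) are shown because each holds letters read by factors measured on the same arrays. In Id2, whose protein binds E proteins, the capitals are an E-box. In Nfil3 they are an E-box and AGGTCA, read here as TGACCT on the other strand, the core of the element bound by RORα and by REV-ERB proteins.
Id2: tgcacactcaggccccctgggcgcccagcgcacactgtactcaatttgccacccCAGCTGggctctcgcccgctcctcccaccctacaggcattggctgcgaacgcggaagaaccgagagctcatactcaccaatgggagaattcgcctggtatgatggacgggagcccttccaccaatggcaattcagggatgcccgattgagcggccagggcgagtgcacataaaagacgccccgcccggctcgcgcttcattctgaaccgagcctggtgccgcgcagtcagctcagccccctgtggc
Nfil3: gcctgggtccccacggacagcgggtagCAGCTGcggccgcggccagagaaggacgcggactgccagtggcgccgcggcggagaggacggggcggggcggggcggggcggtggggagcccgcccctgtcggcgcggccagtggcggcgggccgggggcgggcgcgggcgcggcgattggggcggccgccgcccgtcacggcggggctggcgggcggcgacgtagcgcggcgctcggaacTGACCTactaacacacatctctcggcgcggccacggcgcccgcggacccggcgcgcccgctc

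Both E-boxes read CAGCTG, at -196 in Id2 and at -223 in Nfil3, and the same 6 letters lay at -1 in the Gata3 window (chr2:9878551-9878850, minus strand). E-box letters were found in 51.4% of all windows and in 6 of the 13 windows of the 7 genes that matched the RefSeq table, so they are no mark of these genes. The AGGTCA of Nfil3 lay at -12. That word was found in 16.3% of all windows and in no other window of the 7 genes. CCGGAA, a core bound by ETS factors, was found in 3 of the 13 windows, those of Gata3, Tox2 and proximal Runx1, against 14.9% of all windows. AGATAA or TGATAA, read by GATA factors, and TTANGTAA, read by NFIL3, were found in none of the 13, against 18.6% and 2.32% of all. The 5 Tox2 windows overlap in part, and 2 of them differ by 1 base in position. No match is evidence that a factor was bound.

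Levels are on the log2 scale, where a difference of 1 is a doubling, and come from RMA, a method that summarises the probes of each set. Because probe sets bind with unequal strength, the levels of the genes described are not compared with each other. Unequal binding also affects a comparison with background genes, on which the calls rest. Each gene was ranked among 1241 background genes, the sensory receptors for odours, pheromones, trace amines and bitter taste. A gene is called above background when its mean ranks high enough among them, at a Benjamini-Hochberg adjusted p under 0.05 over all named genes. By this rule 46.2% of all named genes were called, the lowest at a mean of 6.37, and 27 of the background genes themselves. A list of 16 genes of other organs gave a harder bar. Of these, 5 were called, and the highest reached 7.42, so calls below that level carry little weight. On all 4 arrays, 25.0% of named genes exceeded each of these 16, a bar called the organ bar from here on. The median of all probe sets lay between 5.99 and 6.03 on the 4 arrays.

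All 10 factors were called above background, and 9 of them cleared the organ bar. The exception was Zbtb16. The genes Id2, Gata3, Tox, Runx3, Ets1 and Rora had a mean above every background gene, with an adjusted p of 0.0108 each by this exact rank test. The other adjusted p were 0.0142 for Tox2 and Runx1, 0.016 for Nfil3 and 0.0226 for Zbtb16. Over the other backgrounds, scalings and sets of arrays tried with the same test, they lay between 0.00837 and 0.0298. Looser rules called all 10 as well, but also many other genes: vomeronasal receptors alone as background called 66.6% of named genes, a level over the 95th percentile of background in each sample 54.4%, and limma's test against the background median 89.4%, including all 16 genes of other organs.

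**Figure D1:**
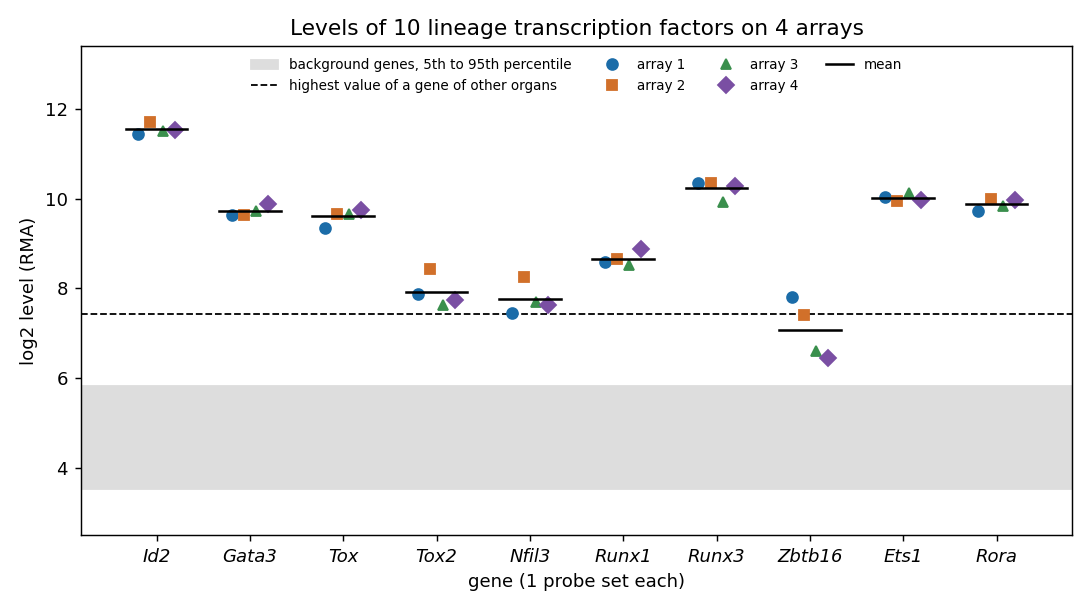
Log2 level of each factor on arrays 1 to 4 (symbols) with the mean (bar), 1 probe set per gene; the grey band spans the 5th to 95th percentile of background gene means and the dashed line marks 7.42, the highest value of a gene of other organs. Of the 10 factors, Zbtb16 alone has values on both sides of the dashed line; heights of different genes are not amounts of RNA that can be compared.

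Id2 encodes a helix-loop-helix protein that cannot bind DNA and holds E proteins away from it. It was at 11.43, 11.70, 11.51 and 11.53 on arrays 1 to 4. The 4 values lay within 0.28 log2 units, a fold of 1.21, with array 2 highest and array 1 lowest. On every array Id2 was above all 1241 background genes. Its mean was 11.54 ± 0.12 (SD, n = 4, as for the means that follow), which is 7.29 log2 units above the background median.

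Gata3, a zinc finger factor needed for innate lymphoid and T cell development and held at high levels in ILC2, was at 9.63, 9.63, 9.73 and 9.89. The values of arrays 1 and 2 were identical to the last deposited digit. RMA's summary step can give such ties, so the SD of 0.12 can be too small. Array 4 was highest, 0.26 above the lowest. Rora encodes RORα, a nuclear receptor best known in ILC2 and also present in ILC3, and was at 9.73, 9.99, 9.84 and 9.96. Its range, 0.26 log2 units or a fold of 1.20, matched that of Gata3, with array 2 highest and array 1 lowest. Background genes reached these levels on array 4 alone, where 1 of the 1241 was at or above each of them.

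Runx3, a RUNX factor known to be needed for ILC1 and ILC3, was at 10.35, 10.34, 9.92 and 10.29. Arrays 1, 2 and 4 lay within 0.06 log2 units of each other and array 3 was 0.36 below the lowest of them. On array 3 the T cell marker mean, at 7.67 against 7.35 to 7.45 elsewhere, and the B cell marker mean, at 9.05 against 7.51 to 8.82, were highest. Their part in the low Runx3 value was not tested. Runx1, which acts from blood stem cells onward, was at 8.59, 8.64, 8.52 and 8.87. Array 4 was highest, and array 3 was lowest as for Runx3, with a range of 0.35 log2 units. On each array 2 of the 1241 background genes lay at or above Runx1.

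Ets1, the founding member of the ETS family and a factor of T, NK and innate lymphoid cells, was at 10.04, 9.95, 10.13 and 9.96. It had the smallest spread of the 10 genes, with an SD of 0.09 and a range of 0.19 log2 units. Of the 10, it was the one gene highest on array 3.

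Tox and Tox2 encode related HMG-box proteins. Tox, needed for lymphoid tissue inducer and NK cell development, was at 9.34, 9.66, 9.65 and 9.74. Arrays 2 to 4 lay within 0.09 log2 units and array 1 was 0.31 below them. Tox2 was at 7.87, 8.42, 7.63 and 7.74, with array 2 at least 0.55 above the others. Between 3 and 5 background genes were at or above Tox2 on each array.

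Nfil3, a basic leucine zipper factor that acts early in innate lymphoid commitment, was at 7.45, 8.25, 7.69 and 7.63. As for Tox2, array 2 was highest, here by 0.56. The ranges were also alike, at 0.80 log2 units for each gene, or folds of 1.74 for Tox2 and 1.75 for Nfil3. Tox differed from Tox2 in this respect, since its array 2 value lay between those of arrays 3 and 4. On array 2 the NK and ILC1 marker mean was highest too, at 6.73 against 6.26 to 6.50. The single markers of that list differed in order. Gzma, which was not called, was at 7.89 on array 2 against 5.94 or less elsewhere, and Xcl1 was also highest there, at 8.60. Klrk1 was lowest on array 2, at 7.67, and Ccl5 was highest on array 3, at 10.69. The part of NK cells and ILC1 in the Tox2 and Nfil3 values was not tested.

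Zbtb16 was at 7.82, 7.40, 6.61 and 6.44. The range was 1.38 log2 units, a fold of 2.60 between arrays 1 and 4. Arrays 1 and 2 lay above the highest gene of other organs on the same array, at 7.42 and 7.40, and arrays 3 and 4 lay below it, at 7.13 and 7.40. The number of background genes at or above Zbtb16 was 5, 9, 16 and 25 on arrays 1 to 4. It remained above background when any 1 array was left out, with a mean of 6.82 without array 1 and 7.28 without array 4. In a sorted population, fewer cells with the RNA and less RNA per cell cannot be told apart. ZBTB16 is also a factor of NKT cells and of some γδ T cells. The γδ T cell marker mean was 7.27, 6.95, 7.11 and 7.0 on arrays 1 to 4, from 3 measured genes, and the T cell marker mean was 7.35, 7.36, 7.67 and 7.45, from 13. Trdc and Trdv4 of the γδ T cell list are not analysed here. Single markers differed in order. Cd3e was lowest on array 2, at 9.07, 8.60, 9.07 and 8.89. Cd3d, at 8.64, 8.08, 8.74 and 7.83, and Cd163l1 of γδ T cells, at 7.10, 6.85, 7.20 and 6.77, were lowest on array 4. Lat, at 9.86, 10.06, 10.06 and 10.14, and Sox13 of γδ T cells, at 6.41, 6.30, 6.55 and 6.56, were highest on array 4. Blk, also of γδ T cells, was lowest on array 3, at 8.30, 7.69, 7.59 and 7.68. The part of T cells in the Zbtb16 values was not tested.

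The factors differed between arrays about as much as other genes did. Their median SD was 0.164 log2 units, against 0.168 for all genes above background, and 5 of 10 lay on each side of the latter. Range rather than SD gave the same picture: 7 of 10 factors had a range under 0.5 log2 units, against 66.4% of genes above background, and 1 of 10, Zbtb16, had a range over 1, against 6.23%. Among genes within 0.5 log2 units of its own mean, the SD of Zbtb16 (0.65) exceeded 97.6%, that of Tox2 (0.35) 85.2%, that of Nfil3 (0.35) 84.7% and that of Ets1 21.1%. The values for the other 6 lay between 35.4% for Gata3 and 74.3% for Runx3. These percentiles describe the 4 arrays and are no test.

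**Figure D2:**
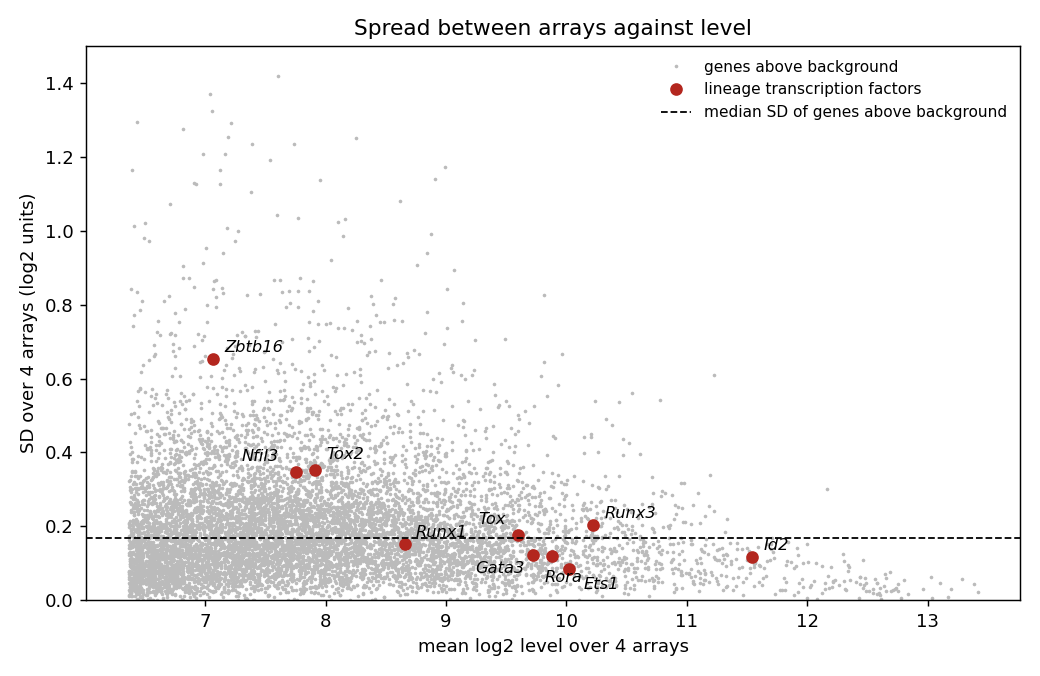
SD over 4 arrays against mean log2 level for every gene above background (grey) and the 10 factors (red), with the median SD of genes above background, 0.168, as a dashed line; 6 genes with an SD above 1.5 lie outside the axis. Zbtb16, Tox2 and Nfil3 stand above the line, and Id2, Gata3, Rora, Ets1 and Runx1 lie below it.

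No array was high or low for all factors. Array 2 held the highest value of 4 factors (Id2, Tox2, Nfil3 and Rora), array 4 of 3 (Gata3, Tox and Runx1), array 1 of Runx3 and Zbtb16, and array 3 of Ets1. Array 1 held the lowest value of Id2, Tox, Nfil3 and Rora, and shared that of Gata3 with array 2. In all genes above background, the share with the highest value lay between 22.6% and 26.5% on each array and the share with the lowest between 21.5% and 27.3%. Of the 6 pairs of arrays, arrays 2 and 3 were the most one-sided, with 8 of 10 factors higher on array 2. The median size of the difference in that pair was 0.192 log2 units for the factors and 0.169 for genes above background. The share of all genes above background that were higher on array 2 than on array 3 was not counted. The median level of genes above background was 7.73 on array 2 and 7.75 on array 3. For all probe sets the median was 6.03 on array 2 and 5.99 on array 3. Whether the 8 of 10 goes beyond a shift of all genes was not tested.

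**Figure D3:**
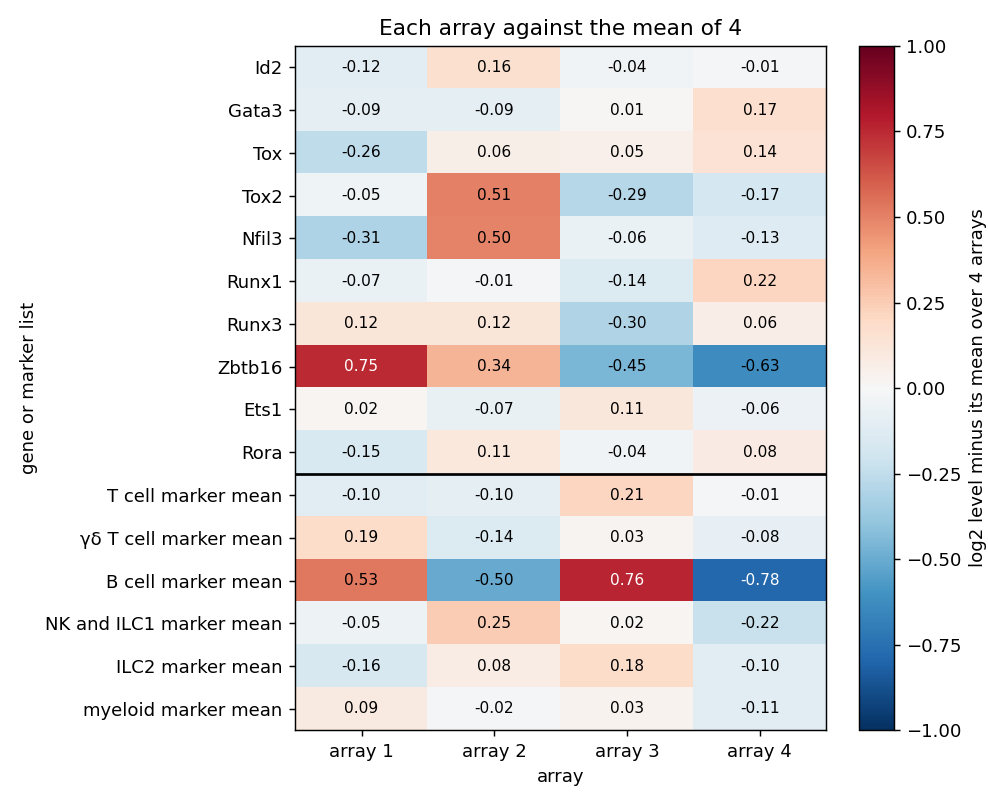
Log2 level on each array minus the mean of the 4 arrays, for the 10 factors (above the line) and the means of 6 marker lists of other cell types (below it); red is higher and blue lower. Zbtb16 runs from 0.75 on array 1 to -0.63 on array 4, Tox2 and Nfil3 are highest on array 2, and the B cell marker mean is high on arrays 1 and 3.

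Genes related to the factors were then examined by family: relatives, partners and competitors, and other transcription factors known from innate lymphoid cells. Of 73 such genes measured, 50 were called (68.5%), against 46.2% of all named genes, and 32 cleared the organ bar, against 25.0%. The median level was 7.16.

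Among the helix-loop-helix genes, the 3 E protein genes were called and the 3 other ID genes were not. Tcf12, Tcf4 and Tcf3, which encode the E proteins HEB, E2-2 and E2A that ID2 binds, were at 9.49 ± 0.11, 8.62 ± 0.24 and 8.10 ± 0.15. Id3 was at 5.91 ± 0.49, Id1 at 5.83 ± 0.11 and Id4 at 5.63 ± 0.03. Id3 was at 6.11, 5.61, 6.51 and 5.42 on arrays 1 to 4, higher on arrays 1 and 3, as was the B cell marker mean at 8.82, 7.79, 9.05 and 7.51, and whether B cells contributed was not tested. With vomeronasal receptors alone as background, Id1, Id3 and Id4 were called too.

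Of 7 GATA genes and cofactors, 2 were called and 0 cleared the organ bar. Zfpm1, which encodes the GATA cofactor FOG-1, was at 7.41 ± 0.20, and Gata4 was at 6.54 ± 0.04, under the organ bar. Gata2 at 6.17 ± 0.05, Gata5 at 6.04 ± 0.03 and Gata6 at 5.46 ± 0.09 were not called, although all 3 were with vomeronasal receptors alone as background. Of the GATA genes measured, Gata3 was the only one to clear the organ bar.

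In the TOX family, Tox4 was at 8.70 ± 0.46 and called, and Tox3 was at 4.82 ± 0.09 and not. Of the RUNX genes and cofactors, 4 of 5 were called. Cbfb, which encodes the subunit shared by all RUNX proteins, was at 8.51 ± 0.27 and Tle3, a corepressor, at 8.93 ± 0.13. Cbfa2t2 at 6.90 ± 0.34 and Cbfa2t3 at 6.59 ± 0.09 were called without clearing the organ bar, and both were not called when the probe set with the lowest mean was used. Runx1t1 was at 5.0 ± 0.13 and not called.

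The 3 PAR bZIP genes, whose proteins bind the same DNA element as NFIL3 and oppose it in the circadian clock, were called. Dbp, at 8.34 ± 0.23, cleared the organ bar, and Hlf at 6.96 ± 0.33 and Tef at 6.49 ± 0.15 did not. Of 3 receptors that share the ROR element, Nr1d1 and Nr1d2, which encode the repressors REV-ERBα and REV-ERBβ, were at 11.03 ± 0.16 and 8.89 ± 0.08 and called. Rorb was at 4.28 ± 0.03 and not called. REV-ERBα is known to repress Nfil3. Nr1d1 was at 11.23, 11.03, 10.84 and 11.02 on arrays 1 to 4, so it was highest where Nfil3 was lowest, on array 1, but lowest on array 3 and not on array 2, where Nfil3 was highest. No relation between both genes was tested over 4 arrays.

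All 10 BTB genes and partners listed were called, and 6 cleared the organ bar. Cul3, a ubiquitin ligase scaffold that BTB proteins including PLZF bind, was at 10.97 ± 0.16. Zbtb20 was at 9.38 ± 0.20, Bcl6, the repressor of follicular helper T and germinal centre B cells, at 8.78 ± 0.41, and Zbtb7b, which encodes the CD4 lineage factor ThPOK, at 8.67 ± 0.20. Bcl6 and Zbtb7b are also factors of B and T cells, whose markers have values given further on, and the part of such cells in these levels was not tested.

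Of 22 ETS genes besides Ets1, 13 were called and 10 cleared the organ bar. Elk3 was at 10.22 ± 0.15, Elf4 at 9.97 ± 0.17, Etv6 at 9.68 ± 0.28 and Fli1 at 9.58 ± 0.10. Elf4 was not called when the probe set with the lowest mean was used. Not called were Etv5 at 6.18 ± 0.07, Etv4 at 5.89 ± 0.10 and Ets2 at 5.78 ± 0.45. Etv5, Etv4 and Ets2 were each called with vomeronasal receptors alone as background.

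Of 15 other factors known from innate lymphoid cells, 12 were called and 7 cleared the organ bar. Ikzf1, which encodes Ikaros, was at 10.40 ± 0.10, the chromatin organiser Satb1 at 10.10 ± 0.09, the AP-1 family gene Batf at 9.50 ± 0.35 and Lef1, a relative of TCF-1, at 9.07 ± 0.05. Myb at 6.30 ± 0.21, Prdm1, which encodes Blimp-1, at 5.30 ± 0.15, and Eomes, a T-box gene of NK cells, at 4.80 ± 0.08 were not called. Myb was called without array 1 or without array 2. With vomeronasal receptors alone as background Myb was called too, and Prdm1 and Eomes were not.

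**Figure D4:**
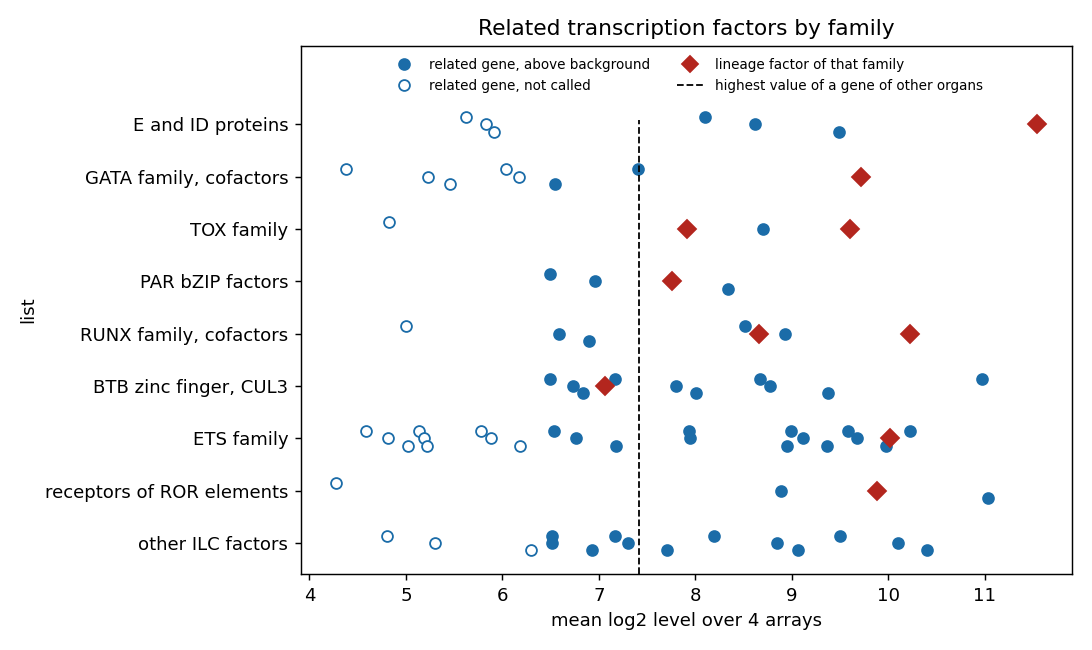
Mean log2 level over 4 arrays of the related genes in 9 lists (filled circles above background, open circles not called) with the lineage factors of each family as red diamonds; the dashed line is at 7.42, the highest value of a gene of other organs. Of 73 genes 50 are filled; positions of different genes are not relative amounts of RNA.

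The identity of the sorted cells and the presence of others were checked by markers. Of the sort gate, Il7r at 12.56 ± 0.06, Thy1 at 11.36 ± 0.15 and Ccr6 at 10.49 ± 0.09 were called, and the gene of ST2 is not analysed here. Over all named genes, 46.2% were called and 25.0% cleared the organ bar. Of 9 genes of ILC3 measured, 8 were called, among them Ltb, Il23r and Kit, and 7 cleared the organ bar. Il22ra2, at 4.49 ± 0.13, was not called. Of 8 surface receptors of innate lymphoid precursors 7 were called and 6 cleared the organ bar. Il18r1 was at 11.41 ± 0.11 and Cxcr6 at 10.78 ± 0.10, while Flt3 at 6.26 ± 0.16 was not called. Flt3 was called with vomeronasal receptors alone as background. ILC3 can carry several of these surface receptors as well, so the receptors do not separate precursors from mature cells.

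Markers of other cells were read against the shares over all named genes, of which 46.2% were called and 25.0% cleared the organ bar. Of 13 T cell markers, 11 were called and 5 cleared the organ bar, with Lat at 10.03 ± 0.12, Cd3e at 8.91 ± 0.22 and Cd3g at 8.77 ± 0.50, while Themis at 6.15 ± 0.30 and Trat1 were not called. Themis was called with vomeronasal receptors alone as background. The T cell list mean lay between 7.35 and 7.67. All 10 B cell markers were called and 8 cleared the organ bar, with Cd79b at 9.84 ± 0.55. NK and ILC1 markers were called in 7 of 13 cases (53.8%), close to the share called over all genes, and 3 cleared the organ bar. Ccl5 was at 9.81 ± 0.83 and Klrk1 at 8.28 ± 0.61; the list mean lay between 6.26 and 6.73, and Eomes, Gzma, Gzmb, Itga2, Klre1 and Klra8 were not called. Gzma was called without array 1 and with vomeronasal receptors alone as background. Of 5 γδ T cell markers listed, 3 were measured, and Trdc and Trdv4 are not analysed here. All 3 were called and 1 cleared the organ bar, with Blk at 7.81 ± 0.33. Sox13 at 6.46 ± 0.12 was not called without array 3. Of 8 ILC2 markers 4 were called (50%), also close to the share over all genes, and 0 cleared the organ bar, with Arg1 at 7.67 ± 0.79, and the list mean lay between 5.92 and 6.26. Of 11 myeloid markers 2 were called, Lyz2 at 8.22 ± 0.73 and Zbtb46 at 6.47 ± 0.07. What share of the levels of the 10 factors came from T, B, NK or ILC2 cells was not tested.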

How the data were processed

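Sorted CCR6+ ILC3 were measured on 4 arrays. The authors deposited 1 log2 level for each probe set and array, made with RMA per the submitters' processing notes. For the version, software and genome build, no statement is given in the sources used here. Of 35556 probe sets, 21789 carried 1 gene symbol in GEO's platform annotation, 1621 several and 12146 none. Symbols of 21698 were updated by Entrez identifier through the RefSeq table of GRCm38.p6, giving 19938 genes, and the probe set with the highest mean stood for a gene with several.

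The detection p was 1 plus the number of background genes at or above a gene's mean, divided by 1 plus the 1241 background genes. This one-sided p, at least 0.000805 by construction, was adjusted by Benjamini-Hochberg over all named genes. Alternatives were another background, a level over the 95th percentile of background in each sample, limma 3.58.1, arrays centred on their median, other probe sets, each array left out, and the genes of other organs as a bar, which was added after the data were seen. The detection and limma calculations were checked on simulated data. Python 3.11.15 and R 4.3.3 were used. Motifs were searched on both strands of 32851 RefSeq promoter windows. No filter on low values was set before testing. The number of arrays limits the precision.

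The 10 factors, the gene lists and the tests were chosen with earlier results of these data known. Named genes are the 10 factors, of each related family up to 4 called genes and up to 3 not called, and of each marker list up to 3 called and up to 1 not called, each with the highest means. Trat1, Cd3d, the uncalled NK genes beside Gzma, and genes named in the closing section for their pattern were named after their values were seen.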

Additional observations from a re-analysis of the deposited data

Results flagged for a closer look

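Of 103 named genes and list means examined, 7 genes had 1 array whose gap to the nearest other array, as a share of the whole range, exceeded Dixon's 95% critical value, a criterion that chance meets in about 1 in 20 groups. Among the lineage factors this was Runx3, at 9.92 on array 3 against 10.29 or more on the others. Among related genes, Fli1 was at 9.73 on array 1 against 9.54 or less, and Gata5, which was not called, at 6.09 on array 3 against 6.03 or less. Among markers, Cd3g of T cells was at 9.51 on array 3 against 8.59 or less. Blk was at 8.30 on array 1 against 7.69 or less. Adgre1 of macrophages was at 7.0 on array 3 against 6.15 or less, and Il22ra2 was at 4.68 on array 3 against 4.43. Neither Adgre1 nor Il22ra2 was called, though Adgre1 was with vomeronasal receptors alone as background. Array 3 was the one apart in 5 of the 7, among them Gata5, Adgre1 and Il22ra2, which were not called. How often array 3 is the one apart among all genes above background was not counted.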

How the results depend on the processing

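All 10 factors were called under each of the 10 alternatives chosen at the outset. Under the organ bar, added after the data were seen, 9 were, without Zbtb16. The count of related genes called was 50, between 49 and 51 when 1 array was left out, 60 with vomeronasal receptors as background, 54 by the 95th percentile, 72 by limma, 47 with the lowest probe set and 32 by the organ bar. The median SD of the factors was 0.128 to 0.162 when 1 array was left out and 0.169 with arrays centred on their median, against 0.164. The call of 35 of 83 named genes changed under at least 1 alternative, 24 of them without counting the organ bar. Signal over background limits genes near 6.37. No paired analysis was possible because there is 1 group.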

Other observations

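The Zbtb16 values fell in the order of arrays 1, 2, 3 and 4, which is an order of labels and not of time. Of 9203 genes above background, 378 (4.11%) had that order, and 9, Zbtb16 included, had it with a range at least as large as that of Zbtb16. The other genes were Dnajc13, Fbxo21, Gpatch8, Ifi208, Nkg7, Nupr1, Rnase6 and Zfp57. Nkg7, a granule gene of NK and cytotoxic T cells, was at 8.61, 8.12, 7.91 and 6.83. Ncr1, which encodes the receptor NKp46 of NK cells, ILC1 and a subset of ILC3, had the same order with a smaller range, at 8.39, 7.83, 7.23 and 7.18. Tbx21, which encodes T-bet, was at 6.77, 6.76, 6.14 and 6.39, higher on arrays 1 and 2 than on arrays 3 and 4, as were Zbtb16 and Ncr1. These genes were singled out for their pattern after the values were seen. Neither Ncr1 nor Tbx21 cleared the organ bar. The rest of the NK and ILC1 list did not all have the order of Zbtb16. Klrk1, at 8.89, 7.67, 8.72 and 7.86, was lowest on array 2. Ccl5, at 8.96, 10.31, 10.69 and 9.27, was lowest on array 1, as was Gzma. Klrb1c had a range of 0.11 log2 units. Itga2, which was not called, had the order of Zbtb16, at 5.85, 5.84, 5.51 and 5.32. The part of NK cells and ILC1 in the Zbtb16 values was not tested.

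On array 2, where Tox2 and Nfil3 were highest, Batf was at 9.90 against 9.34, 9.11 and 9.65 on arrays 1, 3 and 4. Arg1 was at 8.74 against 6.83, 7.63 and 7.48, Gzma at 7.89 against 5.19, 5.41 and 5.94, and Ets2 at 6.44 against 5.53, 5.44 and 5.69. These genes too were chosen after their values were seen, and no relation between them was tested.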
